A study of Oryza sativa with 16 samples.

Results

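OsHOX24 regions on rice chromosome 11 were taken as every ChIP-seq summit that the 8 deposited lists place on this chromosome, with summits up to 200 bp apart merged into a region. The rule gave 763 summits in 420 regions, of 16253 regions on the 12 nuclear chromosomes. A summit is the position inside a called peak where the enrichment is highest. Chromatin came from seedlings 3 weeks old, either wild-type (WT) or of line H49, which was transformed to over-express OsHOX24, after 3 h in water (control) or of drying (desiccation). Each of the 4 groups had 2 ChIP libraries, made with an antibody against OsHOX24. H49 is a single transgenic line, the sources used here do not give the promoter of its transgene, and WT plants carry the native OsHOX24 gene, so neither genotype lacks the antigen. Whether the replicates were separate plant samples is not stated in the labels, so p-values measure the spread between these libraries, which may be technical.

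OsHOX24 belongs to the homeodomain-leucine zipper (HD-Zip) proteins of subfamily I. In this plant-specific family the homeodomain contacts DNA and the adjoining leucine zipper pairs 2 proteins into a dimer, and many members of subfamily I take part in responses to water deficit and abscisic acid. Rice chromosome 11 is known for clusters of disease resistance genes, and its start shares an ancestral duplicated segment with the start of chromosome 12.

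Strength was expressed as the within-list percentile of the −log10 p that the authors' peak caller gave a summit, with 100 for the strongest summit of the list, because −log10 p itself is not comparable between libraries. A region took the value of its highest summit in a library. The lists differed in length, with 2172 nuclear summits in the shortest (WT desiccation replicate 2) and 9345 in the longest (WT control replicate 1), and read depth is unknown. A region without a summit in a list was treated as not called. Coordinates are those of the MSU version 7 rice genome, and the genes at these positions were not analysed here.

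Chromosome 11 was the most sparsely occupied of the 12 chromosomes, with 14.5 regions per Mb against 25.9 on chromosome 12, the next lowest, and 69.6 on chromosome 3, the highest. The number of summits on it was 226 and 75 in the WT control replicates and 126 and 103 in the H49 control replicates. Under desiccation it was 52 and 56 in WT and 57 and 68 in H49. The 4 control libraries therefore all held more chromosome 11 summits than the 4 desiccation libraries, as their lists were also longer as a whole. Neighbouring regions were separated by a median of 7295 bp, and 128 of the 419 gaps were shorter than 1000 bp. The widest gap, of 1214320 bp, lay between positions 15466431 and 16680752.

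The regions were unevenly spread along the chromosome, with a crowded start, a sparse middle and a second crowded stretch beyond 19 Mb. These 3 stretches were delimited after the counts were seen. The first 6 Mb held 156 regions (26.0 per Mb), the next 13 Mb held 110 (8.46 per Mb) and the last 10 bins, from 19 Mb on, held 154 (15.4 per Mb). Of these, 50, 23 and 48 in turn were called only in WT control replicate 1, the longest list. The densest bin of 1 Mb ran from 2 to 3 Mb and held 40 regions, followed by the bins from 19 to 20 Mb with 34 and from 5 to 6 Mb with 30. No bin was empty, and the bin from 9 to 10 Mb had the fewest regions, 3, each called in 1 library.

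**Figure D1:**
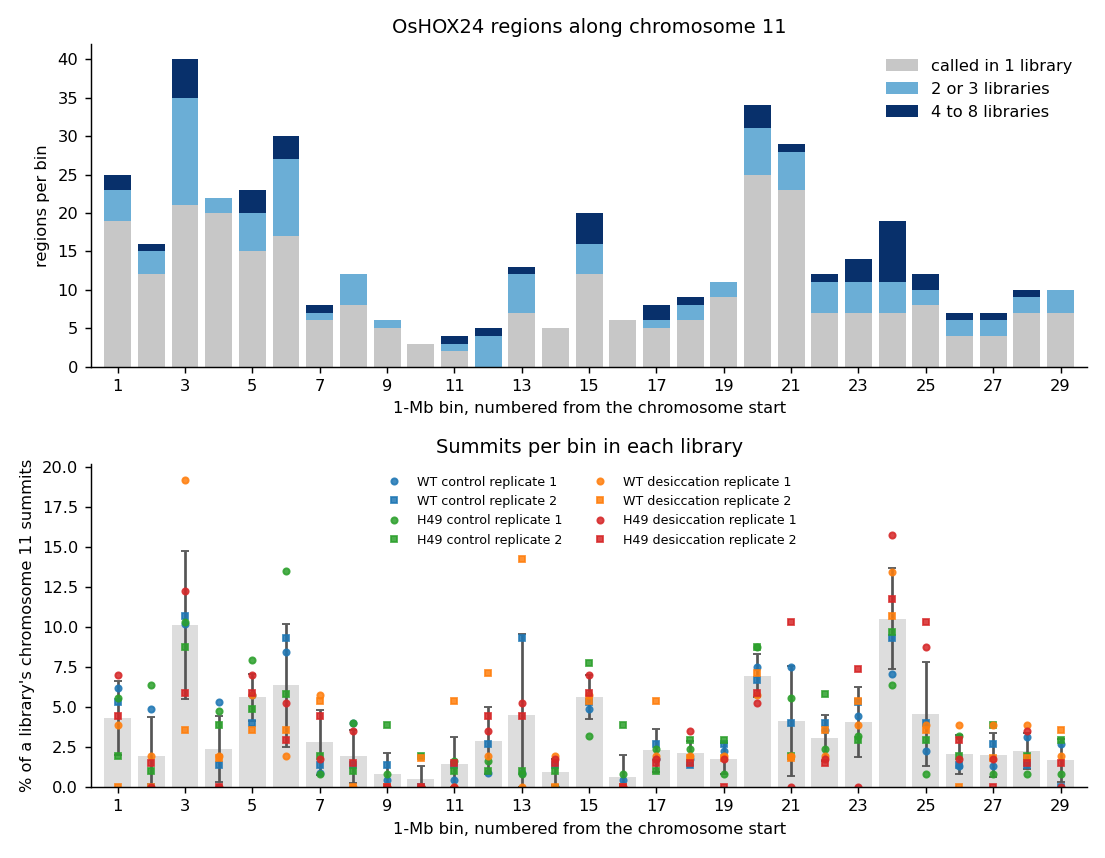
Number of regions in each 1-Mb bin of chromosome 11 by the number of libraries that called them (upper panel), and the percentage of each library's chromosome 11 summits in the bin (lower panel; points are the 8 libraries, bars their mean, error bars 1 SD drawn no lower than 0). The bin from 2 to 3 Mb, numbered 3, holds the most regions (40), while bin 24 holds the most regions called in 4 to 8 libraries (8).

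The most crowded bin was not the bin with the most regions called in at least 4 libraries. From 2 to 3 Mb, where 40 regions lay, 19 were called in at least 2 libraries, the most of any bin. Of these 40 regions, 5 were called in at least 4 libraries and 0 in all 8. The bin from 23 to 24 Mb held 19 regions, of which 12 were called in at least 2 libraries, 8 in at least 4 and 4 in all 8. Those 8 regions lay within 833 kb, from position 23065657 to 23898662, and made up 17.4% of the 46 chromosome 11 regions called in at least 4 libraries. This bin held 10.5% ± 3.15 (SD, n = 8) of a library's chromosome 11 summits, from 6.35% in H49 control replicate 1 to 15.8% in H49 desiccation replicate 1. By contrast, the 2 neighbouring bins from 19 to 21 Mb held 63 regions, of which 48 were called in a single library and 4 in at least 4. WT control replicate 1, the longest list, supplied 25 of those 48.

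The libraries differed in how they filled the chromosome. In WT desiccation replicate 2 the sparse middle, from 6 to 19 Mb, held 48.2% of the chromosome 11 summits and the first 6 Mb held 12.5%. In the other 7 libraries the middle held 18.6% to 31.1% and the first 6 Mb held 20.6% to 48.4%. The bin from 12 to 13 Mb contributed most to this: it held 8 of the 56 summits of WT desiccation replicate 2 (14.3%) and 7 of the 75 of WT control replicate 2 (9.33%), but 0 to 3 summits in each of the other libraries. Of its 13 regions, Chr11:12043804-12044017, Chr11:12119062-12119266 and Chr11:12277955-12278193 were called in these 2 libraries and in no other. On the same bin, Chr11:12115460-12115763 and Chr11:12120521-12120738 were called in both of them and in H49 desiccation replicate 2. These 5 regions were picked with their values in view.

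Recurrence over libraries on chromosome 11 was close to that of the other chromosomes. Of the 420 regions, 277 (66.0%) were called in 1 library, 143 (34.0%) in 2 or more, 46 (11%) in 4 or more and 9 (2.14%) in all 8. Over all 16253 regions, 35.4% were called in 2 or more libraries, 11.2% in 4 or more and 1.68% in all 8, so the chromosome 11 shares lay near the background. WT control replicate 1, the longest list, supplied 121 of the 277 regions called once, which was 54.0% of its chromosome 11 regions. In the other 7 libraries the regions called nowhere else were 12 to 44, or 16% to 42.7% of a library's chromosome 11 regions.

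**Figure D2:**
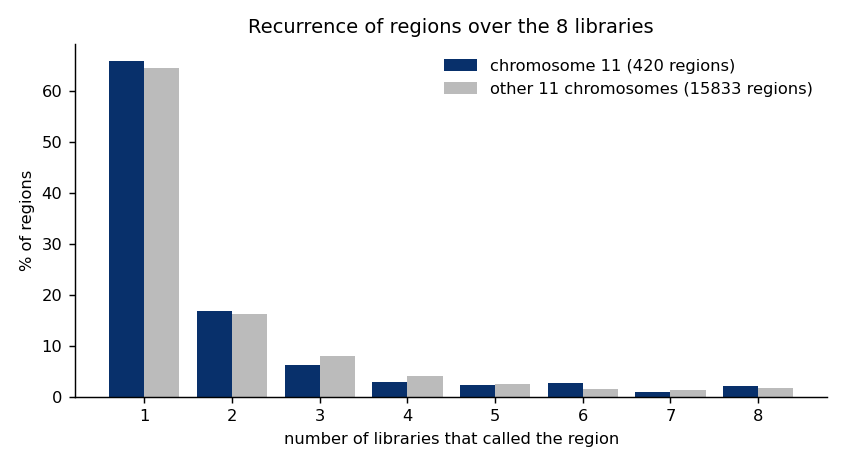
Percentage of regions called in 1 to 8 libraries, for the 420 regions of chromosome 11 (dark) and the 15833 regions of the other 11 chromosomes (grey). The largest class in both is that of regions called in 1 library, at 66.0% and 64.6%.

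Libraries of the same group shared no larger part of their chromosome 11 regions than libraries of different groups did on average. The Jaccard index, which is the number of regions shared by 2 libraries over the number called in either, averaged 0.182 ± 0.0248 (SD, 4 replicate pairs) within groups and 0.199 ± 0.0625 (24 pairs) between groups. The most alike were WT control replicate 2 and WT desiccation replicate 2, with 33 regions shared (0.337). The least alike were WT control replicate 1 and WT desiccation replicate 2, with 24 shared (0.0938). Lists of unequal length cap the index. WT control replicate 1 had 224 chromosome 11 regions, against 75 in WT control replicate 2 and 56 in WT desiccation replicate 2. The averages therefore partly reflect list length, and the index was not analysed over all chromosomes.

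The strongest recurrent region was Chr11:6114092-6114314, called in all 8 libraries within a summit span of 22 bp. Its within-list percentile in control was 99.4 and 99.7 for WT and 98.3 and 98.1 for H49, and under desiccation 98.8 and 99.1 for WT and 98.1 and 99.7 for H49. It ranked between 9th, in the 2359 summits of H49 desiccation replicate 2, and 74th, in the 4236 of H49 control replicate 1. The authors' −log10 p at it was 30.3 in WT desiccation replicate 1 and 163 in WT control replicate 2. The region thus lay near the top of every list, with a mean percentile of 98.9 ± 0.672 (SD, n = 8), in both genotypes and both treatments. It was the strongest chromosome 11 summit in 4 libraries, namely WT control replicate 2, both WT desiccation replicates and H49 desiccation replicate 2.

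A further 8 regions were called in all 8 libraries. Chr11:23065657-23065898 had a mean percentile of 93.0 ± 6.36, with 94.8 to 99.4 in control and 82.1 to 97.8 under desiccation. Chr11:21260480-21260749 followed at 88.4 ± 8.06, with 77.6 in WT desiccation replicate 2 as its lowest value and 99.4 as its highest. Both stayed in the upper part of every list, and in both the control and desiccation ranges overlapped. Chr11:23865733-23865996 (81.7 ± 16.5) and Chr11:23619259-23619525 (80.1 ± 21.4) came next, each with its lowest percentile in WT desiccation replicate 2, 51.1 and 39.3. The other members were Chr11:11187447-11187883 (74.6 ± 32.9), Chr11:24970795-24971311 (55.0 ± 25.3), Chr11:23358164-23358561 (54.4 ± 29.7) and Chr11:5455024-5455464 (51.0 ± 29.1). Their large SDs show that being called everywhere did not mean being strong everywhere: Chr11:11187447-11187883 stood at 90.4 to 97.0 in control and at 2.58 in WT desiccation replicate 1.

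In 4 of these 9 regions every control library had a higher percentile than every desiccation library. At Chr11:23358164-23358561 the percentiles were 92.4, 59.3, 83.5 and 85.8 in control and 27.8, 23.2, 39.9 and 23.2 under desiccation. At Chr11:5455024-5455464 they were 90.2, 53.7, 82.2 and 72.9 in control and 21, 9.51, 35.8 and 43.0 under desiccation. The other members were Chr11:11187447-11187883, with 90.4 as the lowest control value and 86.9 as the highest desiccation value, and Chr11:23865733-23865996, with 90.6 and 88.0. Of the 273 regions called in all 8 libraries on any chromosome, 13.2% had control above desiccation without overlap, and 0 had the reverse. Each of the 4 had p = 0.0286 in an exact two-sided permutation test, the smallest that 4 against 4 libraries allow, and 0.217 after Benjamini-Hochberg adjustment over the 273 regions, so none passed. A percentile depends on how many weak summits a list holds. When each list was reduced to its 2172 strongest summits, 1 of the 7 chromosome 11 regions still called in all 8 libraries kept the separation, Chr11:23358164-23358561. Over all chromosomes 8 of 246 such regions (3.25%) then had control above desiccation and 4 (1.63%) had the reverse. Chr11:24970795-24971311 had the opposite order of means, 42.6 in control and 67.5 under desiccation, with overlapping ranges (17.5 to 72.6 and 34.5 to 85.1; exact permutation p = 0.2, adjusted 0.371). The H49 and WT ranges overlapped in all 9, so 0 had H49 below WT throughout, against 1.83% of the 273, and 0 had H49 above WT, against 0% of them.

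**Figure D3:**
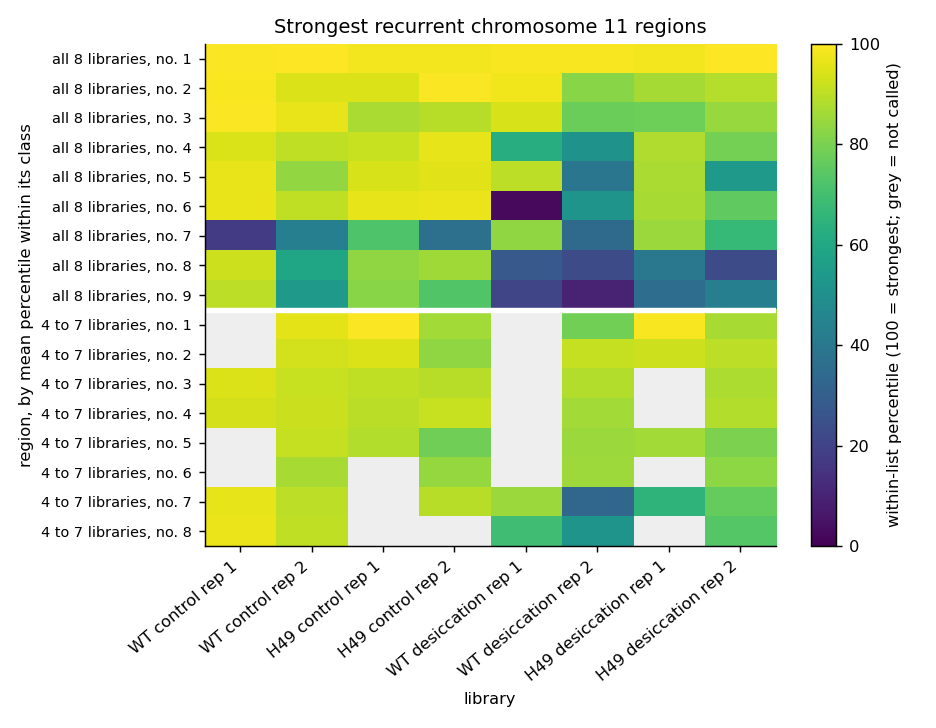
Within-list percentile of the 9 chromosome 11 regions called in all 8 libraries (upper block) and of the 8 with the highest mean percentile among those called in 4 to 7 libraries (lower block); columns are libraries and grey cells mark libraries without a summit in the region. The first row is Chr11:6114092-6114314, at 98.1 or above in every library, and in the lower block WT desiccation replicate 1 lacks the first 6 regions.

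Several regions were strong wherever they were called yet missing from the same few libraries. Among regions called in 4 to 7 libraries the highest mean percentile was that of Chr11:19395683-19395934, at 91.1 ± 8.38 (SD, 6 libraries), with 99.6 in H49 control replicate 1 and 99.2 in H49 desiccation replicate 1. Chr11:12123269-12123502 (90.8 ± 4.04) and Chr11:17630243-17630456 (84.9 ± 4.85) were called in the same 6 libraries. These 3 regions were missing from WT control replicate 1 and WT desiccation replicate 1, although the first of these has by far the longest list. Chr11:14553221-14553464 (90.3 ± 2.55) and Chr11:19402390-19402621 (90.2 ± 2.78) were missing from the first replicate of both desiccation groups. The latter lies close to Chr11:19395683-19395934 but was called in a different set of libraries. Chr11:19552795-19553030 was called in replicate 2 of all 4 groups, at percentiles of 83.1 (H49 desiccation) to 87.0 (WT control), and in replicate 1 of none. Genotype and treatment therefore did not separate the libraries with and without these regions, while the replicate number did for the last. Of the 46 regions called in at least 4 libraries, 9 (19.6%) were called in all 4 replicate 2 libraries and in at most 2 of the replicate 1 libraries, and 2 (4.35%) showed the reverse, Chr11:2850645-2851081 and Chr11:23227772-23228314. Over all chromosomes the shares were 9.70% and 8.66% of 1825 such regions. This split was counted with the values in view and was not tested. The list ended with Chr11:24653253-24653560 (76.4 ± 21.7, 7 libraries) and Chr11:22328697-22328965 (76.4 ± 17.9, 5 libraries).

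Strong recurrent regions also had closely placed summits. Of the 46 chromosome 11 regions called in at least 4 libraries, 13 had a mean percentile above 75, and their summits spanned a median of 43 bp (range 13 to 107 bp). The other 33 spanned a median of 178 bp (19 to 367 bp). The median spans over all chromosomes were 46 and 184 bp for the same classes, and 26.8% of such regions lay above that percentile, against 28.3% on chromosome 11. Across the 46 regions Spearman's rho between mean percentile and span was −0.623. The regions share the same 8 libraries, and a region called in more libraries has more summits to span.

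The first group comparison asked whether desiccation changed the part that chromosome 11 takes in a library. In control seedlings its share of summits was 2.42% and 2.37% for WT and 2.97% and 3.05% for H49, and in desiccated seedlings it was 1.93% and 2.58% for WT and 2.44% and 2.88% for H49. Control and desiccation overlapped, at 2.70% ± 0.358 and 2.46% ± 0.396 (SD, n = 4 each), a difference of −0.24 percentage points (exact two-sided permutation p = 0.457, adjusted 0.729 over 6 group contrasts). The median within-list percentile of chromosome 11 summits was 47.9 to 57.0 in control and 42.4 to 55.1 under desiccation. The means were 53.9 ± 4.08 and 46.7 ± 5.86 (exact permutation p = 0.0571, adjusted 0.171, n = 4 each). Over all 8 libraries this median was 50.3 ± 6.05, against 50 for the middle of a list, with 4 libraries on either side (exact two-sided sign-flip permutation p = 0.891), so chromosome 11 summits were not detectably stronger or weaker than the rest.

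**Figure D4:**
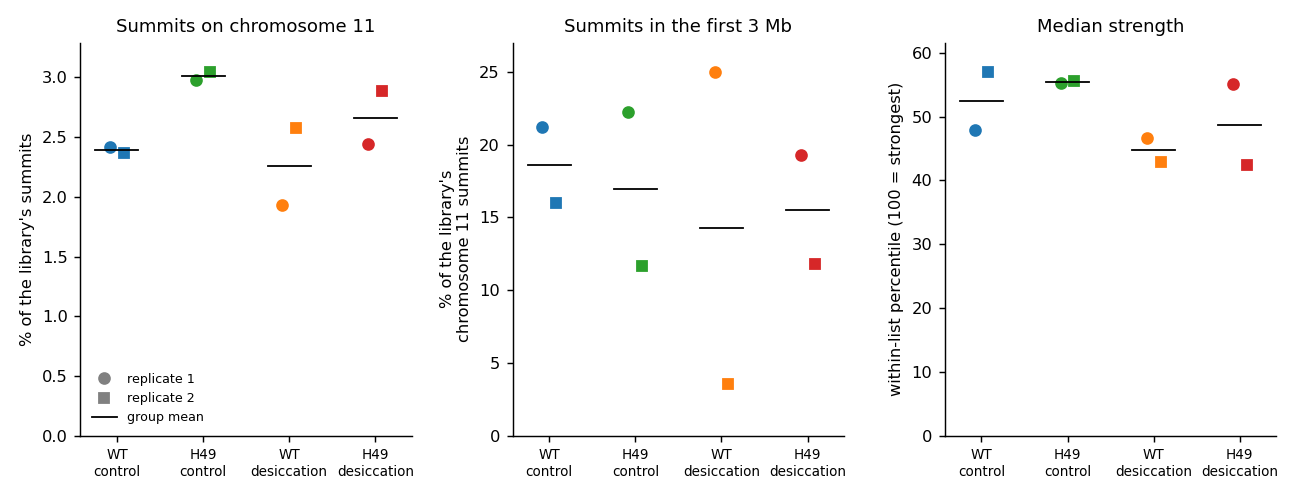
Chromosome 11 share of a library's summits, share of the chromosome 11 summits in the first 3 Mb, and median within-list percentile of chromosome 11 summits, by group. Circles are replicate 1, squares replicate 2 and lines group means; in the middle panel replicate 1 lies above replicate 2 in all 4 groups, and in the left panel the H49 control libraries (2.97% and 3.05%) have the highest shares.

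By single regions, 10 on chromosome 11 had a summit in 3 or more of the 4 control libraries and lacked one in every desiccation library, 2.38% of its regions against 2.66% of all regions. The reverse was met by 0 of 420, against 0.418% of all regions. The shares were near the background, and the 10 regions do not set chromosome 11 apart. All 10 were called in WT control replicate 1, the longest list, as were 402 of the 432 such regions genome-wide (93.1%). Of the 10, 8 were called in H49 control replicate 1, 7 in WT control replicate 2 and 5 in H49 control replicate 2. None was called in all 4 control libraries, whereas 83 of the 432 such regions genome-wide (19.2%) were. With the 2172 strongest summits of each list, 4 of 236 chromosome 11 regions were control-only (1.69%, against 1.41% of all regions) and 1 was desiccation-only (0.424%, against 1.27%). Over all chromosomes the 2 sets then numbered 121 and 109, where the full lists gave 432 and 68, so most of that imbalance was lost when lists had equal length.

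The strongest of the 10, Chr11:2391272-2391525, shows how far such a call can depend on the merging distance. It was called in WT control replicate 1 (percentile 99.6, the strongest chromosome 11 summit of that list), H49 control replicate 1 (96.5) and H49 control replicate 2 (67.4). A neighbouring region 54 bp away, Chr11:2390911-2391217, was called in both WT desiccation libraries (percentiles 4.78 and 11.2) and in no other. A further neighbour, Chr11:2391642-2392101, was called in WT control replicate 2 (72.3), WT desiccation replicate 1 (0.892) and H49 desiccation replicate 2 (33.5). Together with Chr11:2390422-2390709 and Chr11:2392250-2392450 these regions form a run of 2029 bp in which all 4 control and 3 of 4 desiccation libraries had a summit. With windows of 250 bp on each side the region was called in 4 control and 3 desiccation libraries and left the set. The desiccation summits in the run were weak within their lists, at percentiles of 0.892 to 33.5. Over the same run the control summits stood at 17.5, for H49 control replicate 2 in Chr11:2392250-2392450, to 99.6, so the ranges overlapped.

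For the other 9 control-only regions the nearest summit of a desiccation library lay 4113 to 224871 bp away, and windows of 250 bp added no desiccation call. Chr11:7875421-7875752 had percentiles of 83.4, 61.8 and 77.8 in the WT control replicates and H49 control replicate 1, and Chr11:22145620-22145860 had 89.4, 50.6 and 61.8 in WT control replicate 1 and the H49 control replicates. The next were Chr11:2688964-2689315 (mean 64.9 ± 19), Chr11:5589137-5589558 (63.8 ± 28.2), Chr11:2938966-2939234 (52.6 ± 13.4), Chr11:21266254-21266510 (51.7 ± 39.4) and Chr11:21485420-21485804 (42.4 ± 9.55), each over 3 libraries. Chr11:19921769-19922168 (40.1 ± 32.7) and Chr11:5459377-5459628 (35.9 ± 18.6) complete the set and are named beyond the naming rule. Apart from Chr11:2391272-2391525, no member reached the top 10% of any list.

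Within a genotype the treatment sets had the same order as the list lengths. Regions called in both libraries of a group numbered 40 for control WT (9.52% of the 420, against 9.11% of all regions) and 34 for control H49 (8.10%, against 8.78%). They numbered 17 for desiccated WT (4.05%, against 3.27%) and 22 for desiccated H49 (5.24%, against 5.8%). Of the 40 in WT control, 14 were also called in both WT desiccation libraries and 16 in neither. Those 16 are 3.81% of the 420 regions, against 3.54% over all chromosomes. Of the 34 in H49 control, 15 were shared with H49 desiccation and 8 had no H49 desiccation summit (1.90%, against 3.36%). The opposite sets were 1 region in WT, Chr11:2390911-2391217 described above (background 0.221%), and 2 in H49 (0.476%, against 1.61%), Chr11:633707-634011 and Chr11:24961560-24961893. Each of the latter was also called in a WT control library, at percentiles of 64.2 in replicate 1 and 43.1 in replicate 2, so neither was absent from control seedlings as a whole. These sets were not tested, since 2 libraries against 2 cannot give a two-sided p below 0.333. The overlap between groups was not analysed over all chromosomes, so the 14 and 15 shared regions have no background beside them.

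The second group comparison addressed over-expression. Chromosome 11 took 2.84% ± 0.273 of the summits in H49 and 2.32% ± 0.276 in WT (SD, n = 4 each). The 4 H49 values, 2.44% to 3.05%, overlapped the 4 WT values, 1.93% to 2.58%, in 1 library of each genotype. The difference of 0.51 percentage points had p = 0.0571 in the exact two-sided permutation test and 0.171 after adjustment over 6 contrasts, and did not pass. The median percentile was 52.1 ± 6.46 in H49 and 48.6 ± 5.99 in WT (exact permutation p = 0.486, adjusted 0.729).

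No chromosome 11 region separated the genotypes over both treatments. Of the 420 regions, 0 had a summit in 3 or more of the 4 H49 libraries and in no WT library, and 0 showed the opposite pattern, against 0.246% and 0.234% of all regions. At those rates a set of 420 regions is small, and 0 does not set the chromosome apart. Within control seedlings, 20 regions were called in both libraries of both genotypes, 58.8% of the 34 H49 control regions and 50% of the 40 WT control regions. This overlap was not analysed over all chromosomes, so whether it is usual is not known. Another 3 had summits in both replicates of H49 control but in no WT control library (0.714% of the 420, against 0.991%): Chr11:652534-652785, at percentiles of 78.8 and 72.1, Chr11:3110547-3110752 and Chr11:19016845-19017143. In the other direction there were 4 (0.952%, against 1.59%), of which Chr11:22328697-22328965 had percentiles of 96.9 and 90.3 in WT control. It was also called in H49 desiccation replicate 2, at 73.6, so it was not confined to WT. The remaining 3 were Chr11:5456612-5456833, Chr11:5917796-5918009 and Chr11:26833054-26833340, with percentiles of 1.31 to 41.5.

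Under desiccation, 10 regions were called in both libraries of both genotypes, 45.5% of the 22 in H49 and 58.8% of the 17 in WT. This overlap, too, has no background over all chromosomes. A set of 2 had summits in both replicates of desiccated H49 but in no desiccated WT library (0.476%, against 1.01%), Chr11:4303225-4303554 and Chr11:24961560-24961893. The first was called in all 4 control libraries as well, with percentiles of 46.4 to 89.7, so what it lacked was a call in desiccated WT seedlings. The opposite set held 3 regions (0.714%, against 0.437%), Chr11:2390911-2391217, Chr11:23898095-23898662 and Chr11:27667778-27668091. The last also had a summit in each of the 4 control libraries, at 70.3 to 94.2, and in WT desiccation at 75.2 and 14.9. These regions within a treatment were named because the sets are small, after their values were seen.

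The first 3 Mb of the chromosome, which belong to the segment duplicated on chromosome 12, held 81 regions and 134 summits. This was 19.3% of the regions on 10.4% of the length, taken as the highest summit position. Control libraries had 48 and 12 summits there for WT and 28 and 12 for H49, and desiccation libraries had 13 and 2 for WT and 11 and 8 for H49. As shares of the chromosome 11 summits these were 21.2% and 16%, 22.2% and 11.7%, 25% and 3.57%, and 19.3% and 11.8%, so replicate 1 lay above replicate 2 in each of the 4 groups. The mean of 16.3% ± 7.06 (SD, n = 8) exceeded the length share by 5.96 percentage points, and 7 of 8 libraries lay above it. The exact two-sided sign-flip permutation p was 0.0469 (smallest possible 0.00781) and 0.0703 after adjustment over 3 tests, so the excess did not pass. Without WT desiccation replicate 2, which had 2 summits there, it was 7.78 percentage points (adjusted p = 0.0469 in the same exact test). That library was the only one below the length share, so leaving it out fixed the smallest possible p and adds no support. Leaving out any other library gave 4.72 to 6.63 percentage points, with adjusted p of 0.0938 to 0.141 in the same exact test.

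By the mean share of summits, the excess lay in the third megabase. For the first 2 Mb alone the share minus the length share was −0.690 percentage points (exact two-sided sign-flip permutation, adjusted p = 0.891). In the upper 50% of each list the excess of the first 3 Mb was 0.815 percentage points (p = 0.766 in the same exact test), so it also lay mainly among the weaker summits. The bin from 2 to 3 Mb held 40 of the 81 regions, and 10.1% ± 4.64 of a library's chromosome 11 summits, from 3.57% in WT desiccation replicate 2 to 19.2% in WT desiccation replicate 1. The first 2 bins held 25 and 16 regions, against 14.5 per Mb over the chromosome, so by regions the crowding was not confined to the third megabase. Crowding did not end at 3 Mb. The stretch from 3 to 6 Mb held 75 regions and 14.3% ± 6.01 of a library's chromosome 11 summits, against 81 regions and 16.3% ± 7.06 for the first 3 Mb.

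The first 3 Mb was crowded, but its recurrent regions were a similar share to the rest of the chromosome and mostly of middling percentile. Of the 81 regions, 29 (35.8%) were called in 2 or more libraries, 8 (9.88%) in 4 or more and none in all 8, against 33.6%, 11.2% and 9 regions for the 339 in the rest of the chromosome. The most widely called was Chr11:2850645-2851081, in 6 libraries at percentiles of 93.8, 43.1, 52.4 and 4.41 in control and 66.7 and 38.2 in the first replicates of the desiccation groups. Chr11:2742833-2743126 was called in 5 libraries, at a mean percentile of 35.2 ± 26.6. The others, each in 4 libraries, were Chr11:2383727-2384113 (51.5 ± 4.90), Chr11:633707-634011 (49.6 ± 27.0), Chr11:2011969-2012447 (44.7 ± 23.3), Chr11:2485365-2485717 (41.8 ± 20), Chr11:1872200-1872655 (41.4 ± 24.8) and Chr11:308152-308506 (40.9 ± 22.1). All 8 lacked a summit in WT desiccation replicate 2. In 7 libraries the median percentile in the first 3 Mb, 10.2 to 49, lay below that of the rest of the chromosome, 43.6 to 63.0. In WT control replicate 1 it lay above, at 55.2 against 47.6. Summits in the top 10% of a list occurred there in WT control replicate 1 (2 summits) and H49 control replicate 1 (1 summit) and in no other library.

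Neither treatment nor genotype showed a detectable shift of summits into or out of this segment. The share was 17.8% ± 4.91 in control and 14.9% ± 9.30 under desiccation (exact two-sided permutation p = 0.629, adjusted 0.754, n = 4 each). It was 16.2% ± 5.36 in H49 and 16.5% ± 9.35 in WT (exact permutation p = 1). The direction of the treatment difference turned, to 0.91 percentage points, without WT desiccation replicate 2, and that of the genotype difference turned under several settings.

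The first 3 Mb of chromosome 12 held more summits than the first 3 Mb of chromosome 11 in 7 of 8 libraries. As a share of all nuclear summits, the chromosome 11 segment held 0.412% ± 0.166 and the chromosome 12 segment 0.590% ± 0.232 (SD, n = 8). In WT control replicate 2 the order was reversed, with 12 summits on chromosome 11 and 11 on chromosome 12, and in WT desiccation replicate 2 the counts were 2 and 3. The difference of −0.178 percentage points had p = 0.0156 in the exact two-sided sign-flip permutation test (smallest possible 0.00781) and 0.0469 after adjustment over 3 tests, and passed. It did not pass in the upper 50% of each list (adjusted p = 0.0938 in the exact permutation test), nor when any library other than WT control replicate 2 or WT desiccation replicate 2 was left out, where 7 libraries give the same adjusted p, 0.0938, at differences from −0.157 to −0.180. Without either of these 2 libraries it passed, but WT control replicate 2 was the only library in the reverse order, so leaving it out fixed that outcome. Without WT desiccation replicate 2 the unadjusted p was 0.03125 in the exact sign-flip permutation test, as in the leave-outs that did not pass. Its adjusted p was lower only because the excess over length, adjusted together with it, then had its smallest possible p. Neither pass adds support. For the first 2 Mb the difference was −0.295, in the same direction and with an adjusted p of 0.0234 in the same exact test. Chromosome 12 also held more summits beyond 3 Mb, 1503 against 629 in the 8 lists together, so the difference was not confined to the segment. As a part of its own chromosome, the first 3 Mb held more on chromosome 11, by summits and by regions. It held 134 summits beside 629 in the rest of chromosome 11, and 187 beside 1503 on chromosome 12. In regions, the parts were 19.3% on chromosome 11 and 16.2% on chromosome 12. This order was not tested.

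**Figure D5:**
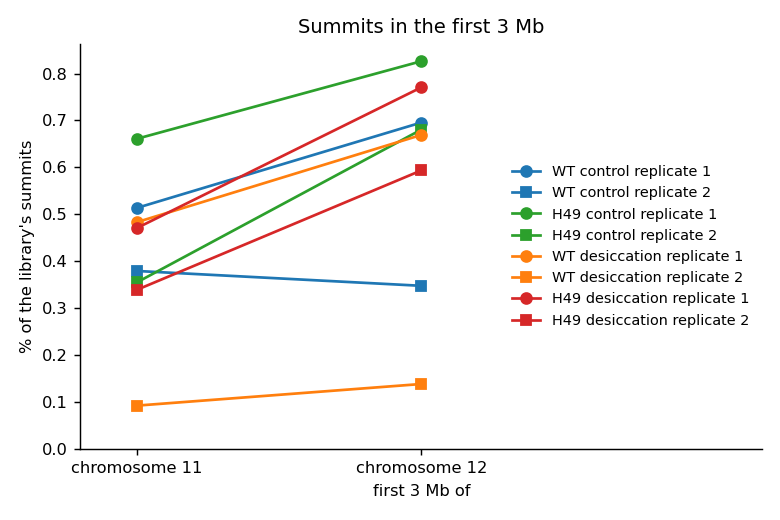
Percentage of a library's nuclear summits in the first 3 Mb of chromosome 11 and of chromosome 12; each line joins the values of a library. The line rises towards chromosome 12 in 7 libraries and falls slightly in WT control replicate 2 (0.379% and 0.347%).

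The starts of both chromosomes did not look alike in where their regions lay, compared at equal distance from the chromosome start. The chromosome 12 segment had 115 regions, of which 36 (31.3%) were called in 2 or more libraries, 8 (6.96%) in 4 or more and 2 in all 8. Over all 16253 regions the shares were 35.4%, 11.2% and 1.68%. At that last rate, 2 of 115 regions on chromosome 12 and none of 81 on chromosome 11 do not set the segments apart. In the rest of chromosome 12, 48.1% of 595 regions were called in 2 or more libraries, 22.5% in 4 or more and 38 in all 8. Of 30 bins of 100 kb, 17 held regions on both chromosomes, 4 on chromosome 11 alone and 9 on chromosome 12 alone. Spearman's rho between the region counts of the 30 bins was 0.0640. Duplicated stretches need not lie at equal distances from the 2 starts, so this comparison does not align matching sequences; an alignment was not analysed here. How the mapping of reads treated sequence that both chromosomes carry is not stated, and its part in these counts was not tested.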

How the data were processed

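Per the labels and series text, the authors filtered reads with NGS QC Toolkit, mapped them to the MSU version 7 rice genome with Bowtie2 and called peaks with MACS2 (version 2.1.1.20160309 in the submitters' processing notes). The deposited lists give 1 summit per line with its position and a −log10 p, a unit read from the MACS2 summit format, the lowest value of 3.00 and the deposited peak names. A Bedops step for confident peaks is named too, without saying whether it came before these lists. Of 16 samples, the 8 inputs were not analysed here. Of 29740 summits, 29684 on nuclear chromosomes were used.

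Windows of 100 bp on each side of summits of all libraries were merged where they overlapped. Coordinates count from 1. Tests were exact permutations over libraries (Python 3.11.15, numpy 2.4.6, scipy 1.17.1), adjusted by Benjamini-Hochberg. Merging and tests were tested on simulated data. The simulated regions lay far apart with little scatter of summits, so the merging of closely spaced regions was not tested. Members and comparisons were chosen with earlier results of these data known. Regions were named by recurrence and mean percentile: up to 10 called in all 8 libraries, 8 called in 4 to 7, up to 8 per set confined to a treatment or genotype and up to 8 in the first 3 Mb. Alternatives were other windows, the upper 50% of each list, equal lists, 1 summit per region, left-out libraries, the replicate block and the first 2 Mb. Genes, motifs and sequences were not analysed here, since no genome of this build was used.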

Additional observations from a re-analysis of the deposited data

Results flagged for a closer look

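The median within-list percentile of chromosome 11 summits in H49 desiccation replicate 2 was 42.4, apart from the other 3 H49 libraries at 55.1 to 55.6. It was flagged because its gap to the nearest of them was large for a set of 4 values; chance flags about 1 in 20 such sets, and 20 sets were examined. No cause was tested.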

How the results depend on the processing

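Equal lists gave 236 chromosome 11 regions, 86 in at least 2 libraries, 4 control-only and 1 desiccation-only, and 1 region in all 8 libraries with control above desiccation (an alternative chosen after seeing the data). The upper 50% of each list gave 203 regions, 78 in at least 2 libraries, 4 in all 8 and 1 desiccation-only, and a chromosome 11 minus chromosome 12 difference of −0.167 that did not pass. Windows of 250 bp gave 1 H49-only region and windows of 50 bp gave 2. With the first 2 Mb the excess over length was −0.690 and the H49 minus WT difference 1.39 percentage points, both reversed.

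Leaving out 1 library at a time gave 301 to 409 regions, 96 to 135 in at least 2 libraries and 8 to 11 in every remaining library. With 2 of 3 libraries then required on the reduced side, control-only regions were 11 to 45 (2.69% to 11.4%, against 3.01% to 9.55% of all regions), desiccation-only 0 to 6 (up to 1.47%, against 0.498% to 1.58%), H49-only 0 to 6 (up to 1.5%, against 0.287% to 1.43%) and WT-only 0 to 9 (up to 2.21%, against 0.302% to 2.93%). The chromosome 11 minus chromosome 12 difference was −0.208 to −0.157, the excess over length 4.72 to 7.78, the first 3 Mb difference −6.23 to 0.910 for desiccation and −4.51 to 2.63 for H49. The chromosome 11 share difference was 0.381 to 0.643 for H49 and −0.385 to −0.0687 for desiccation. The median percentile differed by −9.97 to −5.74 for desiccation, 1.55 to 6.67 for H49 and −0.616 to 1.48 against the middle of the list, and the count of regions in every library with control above desiccation was 4 to 6. Causes were not tested, beyond there being fewer libraries or summits.

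The replicate block left the differences as they were (0.511 for the H49 share, p = 0.125 in the exact sign-flip permutation over 4 pairs, the smallest it allows), so no call could pass. The labels do not say that a number marks a shared batch. Differences in calls between replicates 1 and 2 correlated between groups at 0.0301 to 0.129 over all regions and at 0.0480 to 0.175 on chromosome 11; all were positive but not all above 0.1, so the numbers were not treated as pairing the libraries, and a shared batch was not tested. The motif search and the chromosome 12 counterparts were not run, and the highest summit already served as the length. Unknown depth limits every absence of a call.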
